A study of Mus musculus with 12 samples.

Results

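Aged hematopoietic stem cells (HSCs) treated with CASIN were compared with untreated aged HSCs across all 22548 genes of the deposited table. The comparison took 8 of the 12 RNA-seq libraries of the series, namely 3 of aged CASIN-treated HSCs (replicates 1, 2 and 3) and 5 of aged control HSCs (replicates 0, 2, 3, 4 and 5), chosen by their group in the sample labels. All cells were long-term HSCs sorted from C57BL/6 mice of 20 to 26 months, and the labels give the same culture of 16 h at 3% O2 in medium with 10% FBS for every sample, with 5 µM CASIN added for the treated group. The series design text gives at least 200 cells and at least 3 mice in each arm. The methods section gives a larger cell number for the libraries, so the input of a library is not certain. No label ties a treated library to a control library of the same animals. The number of mice behind a library is not given in the sources used here. The p-values thus measure the spread between libraries, estimated in 1 fit of all 12 libraries with the young ones included.

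CASIN is a small molecule that lowers the activity of Cdc42, a small GTPase that acts as a molecular switch. Cdc42 cycles between a GDP-bound and a GTP-bound state. Exchange factors switch it on, GTPase-activating proteins switch it off, and its effectors (such as the Pak kinases) carry the signal to the actin cytoskeleton and to the Par proteins that set cell polarity. In aged HSCs an elevated Cdc42 activity is known to go along with a loss of polarity, and CASIN is used to bring this activity down. The RNA-seq libraries were made beside ChIP-seq for the histone mark H4K16ac in the same groups, to relate transcript changes to that mark.

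The values are log2 expression levels that share 1 distribution across libraries, and a gene was counted as detected where it stood above the lowest value of its library. CASIN replicate 2 stood apart from CASIN replicates 1 and 3 in this measure. It is therefore given separately wherever values of single CASIN libraries are listed. A log2 difference given alone pools all CASIN libraries, unless CASIN replicate 2 is said to be left out. Such a difference can hide a deviating value of CASIN replicate 2. In CASIN replicate 2, 20013 genes were detected, compared with 6845 in CASIN replicate 1, 7288 in CASIN replicate 3 and 11463 to 17621 in the aged libraries. Above a log2 value of 3 the 8 libraries held nearly the same number of genes, from 6790 to 7271. In CASIN replicates 1 and 3 nearly every detected gene was above 3 (6837 and 7271 genes). The shared distribution largely fixes how many genes stand above a given value. These counts thus cannot show at which expression levels the further genes of CASIN replicate 2 lay. Of all genes, 3031 (13.4%) were detected in all 8 libraries and 10194 (45.2%) were detected in CASIN replicate 2 but in neither CASIN replicate 1 nor 3. A further 1188 genes were detected in 5 of 5 aged libraries and in neither CASIN replicate 1 nor 3, and 1180 of these were detected in CASIN replicate 2. Such genes can appear lower after CASIN through CASIN replicates 1 and 3 alone, and with these values fewer cells, less RNA per cell and a shallower library cannot be told apart.

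**Figure D1:**
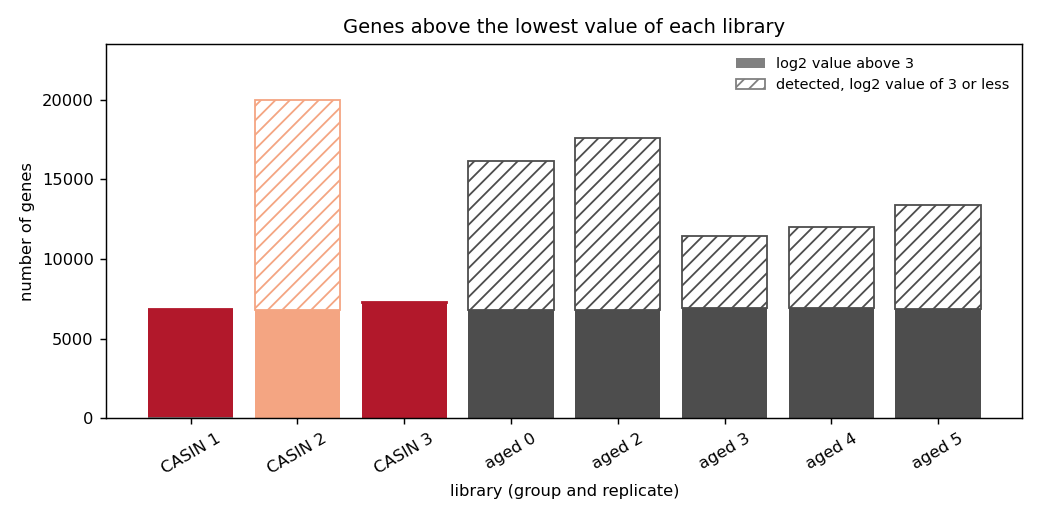
The bars give the number of genes (of 22548) above the lowest value of each library, with filled parts for log2 values above 3 and hatched parts for detected genes at 3 or less. The filled parts are alike in the 8 libraries (6790 to 7271 genes), while the hatched part is almost absent in CASIN 1 and CASIN 3 and is the tallest in CASIN 2. The shared distribution of the libraries largely fixes the filled parts.

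The sorted cell type was checked against its markers. Meis1, a transcription factor of HSCs, was detected in all 8 libraries at 8.28, 7.36 and 8.09 in CASIN replicates 1, 2 and 3 and between 6.54 and 8.53 in the aged libraries. Mecom was detected in 8 libraries and Hlf in 7. The surface proteins by which HSCs are sorted were less evenly detected. Kit had a value of 6.80 in CASIN replicate 2 and was at the lowest value in CASIN replicates 1 and 3, and in the aged libraries it reached at most 2.21. Ly6a, which encodes Sca-1, was at the lowest value in CASIN replicates 1 and 3 and at 1.16 in CASIN replicate 2, with at most 1.79 in aged libraries. Of 10 stem cell markers, 3, 10 and 4 were detected in CASIN replicates 1, 2 and 3 and 6 to 10 in the aged libraries. Among defining genes of other cells, Cd48 was at the lowest value in all 8 libraries. The erythroid markers Klf1 and Gata1 were at the lowest value in all 3 CASIN libraries and reached 4.04 and 5.71 in aged libraries. Epor, another erythroid marker, stood at 6.84 in CASIN replicate 2 and at 4.62 to 6.18 in 4 aged libraries. Of 5 granulocyte and monocyte markers, 1, 5 and 1 were detected in CASIN replicates 1, 2 and 3 and 2 to 4 in the aged libraries. Elane was close to the lowest value in all 3 CASIN libraries and reached 6.49 in an aged library, whereas Csf1r, a monocyte receptor, was detected in all 3 CASIN libraries (3.34, 2.40 and 4.62) and in 4 aged libraries. Some genes of other lineages were present, unevenly within a lineage. Of 5 T and NK cell markers, 1, 5 and 1 were detected in CASIN replicates 1, 2 and 3 and 1 to 4 in the aged libraries. Cd3d of T cells, not among these markers, stood at 8.27 to 9.10 in all 8 libraries. In contrast, Cd3e and Cd3g were at the lowest value in CASIN replicates 1 and 3, and Cd5 in all 8 libraries. Lck of T cells stood at 6.52 in CASIN replicate 1, and Ncr1 of NK cells and Cdh5 of endothelium at 7.96 and 6.56 in CASIN replicate 3. Ebf1 of B cells was detected at 4.79 and 3.73 in CASIN replicates 1 and 2 and at 2.15 to 7.93 in aged libraries. Of 5 erythroid and 5 megakaryocyte markers, 0 were detected in CASIN replicates 1 and 3, compared with 2 and 3 in CASIN replicate 2 and with 1 to 4 and 2 to 3 in the aged libraries.

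Few genes differed between CASIN-treated and untreated aged HSCs beyond the spread between replicates. With limma, 5 of 22548 genes (0.0222%) had a Benjamini-Hochberg adjusted p under 0.05, with 4 higher and 1 lower after CASIN. At an unadjusted p under 0.05, 559 genes (2.48%) were higher and 434 (1.92%) lower, together fewer than the 1127 genes that evenly spread p-values would give. This split depended on the scaling. Of the genes at that threshold, 56.3% were higher as deposited, compared with 81.7% when libraries were centred by means of the genes that every sample detected and 45.9% when all libraries were given a common lowest value. The calls were tied to detection. Of the 559 higher genes, 317 were detected in all 3 CASIN libraries, and 50 were detected in CASIN replicate 2 alone of the CASIN libraries and in no aged library. Of the 434 lower genes, 290 were detected in CASIN replicate 2 but in neither of the other CASIN libraries.

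The genes that passed the adjusted threshold were Kcnq1ot1, 2700054A10Rik, Polr1d and Plin5, which were higher, and Rnf122, which was lower. In each of them the values of the CASIN and of the aged libraries did not overlap, and CASIN replicate 2 lay on the same side as CASIN replicates 1 and 3. Where a gene was at the lowest value throughout a group, its spread there is only that of the libraries' lowest values. This spread was a standard deviation of 0.0954 for Kcnq1ot1 in aged libraries and 0.348 for Rnf122 in CASIN libraries. The standard errors of such genes thus rest partly on values without detection. The starts of the 4 higher genes are shown because these genes carry the difference. The sequences are the RefSeq promoter windows of GRCm38.p6, from 250 bases before to 50 bases after 1 RefSeq start of the gene, read 5′ to 3′ on the strand of the gene, with CG pairs in capitals. For Plin5, the first of 2 listed starts is given. Of the 5 genes, 4 were matched in this table. The annotations differ in their starts. RefSeq places 2700054A10Rik at 13487021 to 13554094 on chromosome 17, whereas GENCODE M21 extends it to 13668891, so that its window lies inside the GENCODE gene. The Polr1d window lies downstream of the outermost start in RefSeq (147076715) and in GENCODE (147077050).
Kcnq1ot1, chr7:143296498-143296797, minus strand: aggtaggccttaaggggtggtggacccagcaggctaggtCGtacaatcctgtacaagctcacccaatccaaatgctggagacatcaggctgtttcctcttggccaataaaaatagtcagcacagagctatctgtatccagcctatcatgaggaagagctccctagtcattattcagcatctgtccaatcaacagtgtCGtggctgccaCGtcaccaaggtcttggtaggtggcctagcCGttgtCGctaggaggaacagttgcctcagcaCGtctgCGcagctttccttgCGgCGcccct
2700054A10Rik, chr17:13554045-13554344, minus strand: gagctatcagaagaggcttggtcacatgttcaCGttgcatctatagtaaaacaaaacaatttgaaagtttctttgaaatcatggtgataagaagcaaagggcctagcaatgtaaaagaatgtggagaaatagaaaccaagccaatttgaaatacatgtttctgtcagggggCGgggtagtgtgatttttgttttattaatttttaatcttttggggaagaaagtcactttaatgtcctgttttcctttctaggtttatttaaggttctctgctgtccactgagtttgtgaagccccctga
Polr1d, chr5:147077096-147077395, plus strand: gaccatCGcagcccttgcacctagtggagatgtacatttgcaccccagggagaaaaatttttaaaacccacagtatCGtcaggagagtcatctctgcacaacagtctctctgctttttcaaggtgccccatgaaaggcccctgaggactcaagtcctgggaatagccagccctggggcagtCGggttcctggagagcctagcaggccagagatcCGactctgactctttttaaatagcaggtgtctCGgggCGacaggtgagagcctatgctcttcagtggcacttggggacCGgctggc
Plin5, chr17:56117499-56117798, minus strand: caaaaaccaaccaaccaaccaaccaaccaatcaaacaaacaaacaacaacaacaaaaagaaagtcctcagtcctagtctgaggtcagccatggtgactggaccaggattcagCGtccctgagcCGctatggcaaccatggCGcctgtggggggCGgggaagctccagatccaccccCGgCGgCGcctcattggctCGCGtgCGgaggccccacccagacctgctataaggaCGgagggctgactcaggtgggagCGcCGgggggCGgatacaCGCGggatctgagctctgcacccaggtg
The motif counted was CG, which reads the same on both strands. The Kcnq1ot1 window holds 9 CG pairs, and 45.8% of the 32851 windows in the table hold at least as many. The 2700054A10Rik window holds 2 (85.9% of windows hold at least as many), the Polr1d window 7 (52.1%) and the Plin5 window 16 (33%). The 4 windows therefore do not share a high or a low CG number.

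Kcnq1ot1 is a long noncoding RNA transcribed antisense within Kcnq1 on chromosome 7 (143203458 to 143296549, minus strand, GENCODE M21), known for silencing the imprinted genes around it. Its log2 value was 15.93 in each of CASIN replicates 1, 2 and 3. In aged replicates 0, 2, 3, 4 and 5 it was at the lowest value of the library, 0.07, 0.02, 0.23, 0.22 and 0.16. Thus it was not detected in 5 of 5 aged libraries and was the gene of rank 2 in 3 of 3 CASIN libraries. The log2 difference was 15.79 (standard error 0.31, limma adjusted p = 8.95e-10). In the 4 young control libraries of the series, cultured without CASIN, it stood at 15.61 in young replicate 2 and at the same 15.93 in the other 3. The aged control libraries thus stood apart from both other groups in this gene, and whether this came from the cells or from a difference in how the values of the libraries were made was not tested. The host gene Kcnq1, the antisense partner, was at the lowest value in CASIN replicates 1 and 3 and in all aged libraries, and at 0.90 in CASIN replicate 2. Of the imprinted neighbours that Kcnq1ot1 is known to silence, Cdkn1c was detected in 1 CASIN and 2 aged libraries (log2 difference 0.39, standard error 0.41) and Phlda2 in 1 CASIN library and no aged library. The sources used here do not say if strand was used when reads were counted.

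The noncoding RNA 2700054A10Rik (chromosome 17, 13482553 to 13668891, minus strand) had values of 8.10, 8.46 and 9.86 in CASIN replicates 1, 2 and 3. It too was undetected in 5 of 5 aged libraries, with a log2 difference of 8.67 (standard error 0.44, limma adjusted p = 9.45e-06). In the young libraries it stood between 7.34 and 7.89, so that here too the aged controls were apart from both other groups. Smok4a, a gene on the opposite strand within its span, was detected in no aged library. Smok4a had values of 5.52 and 4.99 in CASIN replicates 2 and 3 and the lowest value in CASIN replicate 1 (log2 difference 3.57, standard error 1.37). Reads from a stretch that both genes cover cannot be told apart without strand, and the overlap of their exons was not examined.

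Polr1d encodes a subunit shared by RNA polymerases I and III, which make ribosomal and transfer RNA. Its values were 5.93, 4.94 and 6.05 in CASIN replicates 1, 2 and 3 and 0.07, 1.90, 0.23, 0.22 and 1.0 in aged replicates 0, 2, 3, 4 and 5. It was thus detected in 2 of 5 aged libraries at low values and in all CASIN libraries. The log2 difference was 4.96 (standard error 0.57, limma adjusted p = 0.0193). Plin5 encodes a perilipin that coats lipid droplets and ties them to mitochondria. Its values were 4.37, 4.86 and 3.03 in the CASIN libraries and 0.48, 0.22, 0.23, 0.22 and 0.16 in the aged libraries (log2 difference 3.82, standard error 0.43, limma adjusted p = 0.0193). Rnf122, which encodes a RING finger ubiquitin ligase (chromosome 8, 31111820 to 31131482), was detected in every aged library, at 5.13, 4.89, 4.37, 6.23 and 3.48. It was at the lowest value in all 3 CASIN libraries, with a log2 difference of -4.42 (standard error 0.56, limma adjusted p = 0.0367). In the 4 young libraries Plin5 and Rnf122 were at the lowest value (0.43 to 0.67), and Polr1d was at the lowest value in 3 and at 2.03 in young replicate 4. For Plin5 and Polr1d the young libraries were thus low like the aged ones, and for Rnf122 they were low like the CASIN libraries. For Rnf122, Plin5 and Polr1d the call was lost in 9 to 14 alternative settings and for 2700054A10Rik in 1 of 26, the replicate block (limma adjusted p = 0.084), whereas Kcnq1ot1 kept it in all 26.

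**Figure D2:**
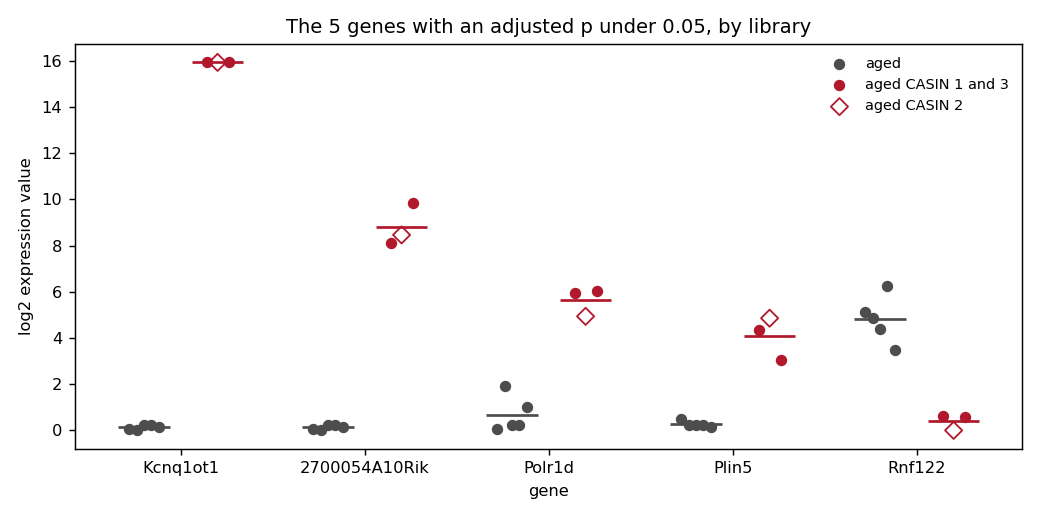
Points give the log2 expression value of each library for the 5 genes with an adjusted p under 0.05, with aged libraries in grey, CASIN 1 and 3 in red, CASIN 2 as an open diamond and lines for the group means. Kcnq1ot1 stands at 15.93 in all 3 CASIN libraries and at or below 0.23 in all aged libraries, and Rnf122 shows the reverse order.

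Complete switches of detection were rare. Besides Kcnq1ot1 and 2700054A10Rik, another 5 genes were detected in all 3 CASIN and in no aged library, so that 7 genes (0.031% of all) had this pattern. Zfp758, a zinc finger protein, had values of 5.48, 2.22 and 5.67 in CASIN replicates 1, 2 and 3 (log2 difference 4.32, standard error 0.69, limma adjusted p = 0.187). The values of Ilvbl, an acetolactate synthase-like protein, were 4.52, 1.79 and 3.82 (adjusted p = 0.237 from limma), and those of C730027H18Rik were 7.66, 4.12 and 3.03 (adjusted p = 0.259 from limma). In Olfr1353 and Tm4sf5 the values in CASIN replicate 2 were near the lowest, at 0.10 and 0.25, whereas CASIN replicates 1 and 3 had 7.45 and 7.42 for Olfr1353 and 5.78 and 4.39 for Tm4sf5. The converse pattern, detection in all 5 aged and in none of the CASIN libraries, was found for 8 genes (0.0355%). After Rnf122, the clearest of these was Vash2, a vasohibin, with 3.29 to 6.12 in the aged libraries (median 4.49, log2 difference -4.27, standard error 0.92, limma adjusted p = 0.541). The other 6 were Col16a1, Gm19784, Msl3l2, Rbm4, Sptlc3 and Tmprss15, each below 3 in at least 1 aged library.

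Beyond detection, the largest differences at an unadjusted limma p under 0.01 with no overlap of the groups were taken as further examples, and of these Kcnq1ot1 and 2700054A10Rik passed the adjustment. Groups did not overlap for 761 genes (3.38%) on the higher side and for 326 (1.45%) on the lower side. The higher number includes genes that are separated by the lowest values themselves, which are 0.58 and 0.63 in CASIN replicates 3 and 1 and at most 0.23 in aged libraries. Of the 761 genes, 155 were detected in all 3 CASIN libraries. Among those, Plekha1, a phosphoinositide-binding adaptor, had values of 6.65, 5.63 and 7.81 in CASIN replicates 1, 2 and 3 and at most 1.16 in aged libraries. Hnrnpk, an RNA-binding protein of the heterogeneous nuclear ribonucleoprotein family, had 8.37, 7.23 and 7.81, compared with 0.67, 3.92, 0.23, 3.82 and 0.16 in aged replicates 0, 2, 3, 4 and 5 (log2 difference 6.04, standard error 1.09, limma adjusted p = 0.282). The transcription factors Klf14 (log2 difference 5.90) and Hsf5 (5.44), the glycosyltransferase B3galt5 (5.60), the acyl-CoA synthetase Acsm1 (5.28), the olfactory receptor Olfr652 (5.47) and 1500012F01Rik (5.33) completed the top 10 together with Kcnq1ot1 and 2700054A10Rik.

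On the lower side, the largest difference was in Ahcy, which encodes the enzyme that removes S-adenosylhomocysteine after methylation reactions. Its values in the aged libraries were 5.86, 7.40, 7.02, 7.83 and 7.02, whereas it was at the lowest value in CASIN replicates 1 and 3 and at 1.30 in CASIN replicate 2 (log2 difference -6.19, standard error 1.45, limma adjusted p = 0.637). Ncapg2, a condensin II subunit needed for chromosome condensation, had 3.93, 5.87, 7.42, 6.79 and 7.04 in the aged libraries and 1.15 in CASIN replicate 2, with the lowest value in the other 2 CASIN libraries (log2 difference -5.43, standard error 1.17, limma adjusted p = 0.541). The glucosidase Ganc had a log2 difference of -5.25 (standard error 0.99, limma adjusted p = 0.348). In Zfp292 and Nfic, both DNA-binding proteins, CASIN replicate 2 held a middle value of 4.23 and 4.04 below all aged values. The other genes of the 10 were Pla2g4c, Zfp804b, Ano3, Sntg1 and 0610010F05Rik, with log2 differences from -5.48 to -4.94. In 9 of these 10 genes CASIN replicates 1 and 3 were both at their lowest value.

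In CASIN replicates 1 and 3 nearly every detected value was above 3, whereas aged libraries also held many detected values of 3 or less. Asking for detection in every library therefore favours genes that are higher in CASIN replicates 1 and 3. With this limit, the 3031 genes detected in all 8 libraries were looked at separately. Of these, 106 were higher and 82 lower at an unadjusted p under 0.05 (6.20%), and 32 were higher and 12 lower at p under 0.01. Their median log2 difference was 0.09. In the next 10 genes, chosen from these by their log2 difference, all 3 CASIN values lay on the same side of every aged value. Ipo9, a nuclear import receptor, had values of 6.37, 6.89 and 7.59 in CASIN replicates 1, 2 and 3 and 2.48, 2.00, 2.02, 2.46 and 0.89 in aged replicates 0, 2, 3, 4 and 5. The lowest CASIN value of Ipo9 was thus far above the highest aged value (log2 difference 4.98, standard error 0.79, limma adjusted p = 0.187). Dph7, an enzyme of the diphthamide modification of elongation factor 2, had 6.65, 6.93 and 7.05 in the CASIN libraries and 0.86 to 2.34 in the aged libraries (median 1.80, log2 difference 5.17, standard error 0.92, limma adjusted p = 0.282). Tnfrsf21, a death receptor, and Crk, an adaptor protein of adhesion signalling, had log2 differences of 4.89 and 4.62, and 3110035E14Rik had 4.75. On the lower side, Nipal4, a magnesium transporter, had 4.37, 4.04 and 4.85 in the CASIN libraries and 6.32, 7.14, 5.73, 7.78 and 7.51 in the aged libraries (log2 difference -2.48, standard error 0.56, limma adjusted p = 0.6). Epha7, an ephrin receptor, had a log2 difference of -2.38, and Rbm34 and Zfp773 had -2.66 and -2.49. In Csnk1g1, a casein kinase, the CASIN values were 3.34, 1.33 and 6.85 and the log2 difference -3.51 (standard error 1.12), and without CASIN replicate 2 it was -2.26 (standard error 1.06, limma adjusted p = 0.728).

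Without CASIN replicate 2, the number of genes with an adjusted p under 0.05 was 51 (0.226%), with 47 higher and 4 lower, and the 5 genes described above were all among them. At an unadjusted p under 0.05, 978 genes (4.34%) were then higher and 641 (2.84%) lower. As CASIN replicate 2 was set apart by its detection, these calls depend on that choice. All 47 higher genes were detected in both CASIN replicates 1 and 3, at values from 3.03 to 15.93, whereas no aged library had a value above 3.59 in any of them. CASIN replicate 2 was low in most of these genes. Its value was above every aged value in 11 of the 47 and below 1 in 29, and its median over the 47 genes was 0.61, compared with 0.49 for the aged means and 5.74 for the means of CASIN replicates 1 and 3.

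Examples of such genes were Pcdha9, B4galt3 and Olfr1353. Pcdha9, a clustered protocadherin whose 3′ exons are shared with its neighbours so that reads may be split among them, had values of 8.24 and 9.80 in CASIN replicates 1 and 3 and 1.32 in CASIN replicate 2, with 0.07 to 1.42 in the aged libraries. Without CASIN replicate 2 its log2 difference was 8.52 (limma adjusted p = 0.000188), and with it 5.95 (limma adjusted p = 0.722). B4galt3, a galactosyltransferase, had 7.58 and 7.40 in CASIN replicates 1 and 3 and 0.21 in CASIN replicate 2. On the lower side, Bnip2, a protein known to bind Cdc42 and its GTPase-activating protein, had 4.79 to 7.49 in the aged libraries (median 7.16) and 7.56 in CASIN replicate 2, but was at the lowest value in CASIN replicates 1 and 3. Rpl23a, a ribosomal protein of the large subunit with processed pseudogene copies, had the same pattern, with 7.05 in CASIN replicate 2 and 5.01 to 7.75 in aged libraries. For Bnip2 the log2 difference without CASIN replicate 2 was -6.14 (limma adjusted p = 0.0136), and for Rpl23a it was -5.95 (limma adjusted p = 0.0123). The antisense transcript Gm10791, which lies within App on the opposite strand, had 3.92 and 4.15 in CASIN replicates 1 and 3, 8.40 in CASIN replicate 2 and 7.26 to 8.88 in aged libraries.

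**Figure D3:**
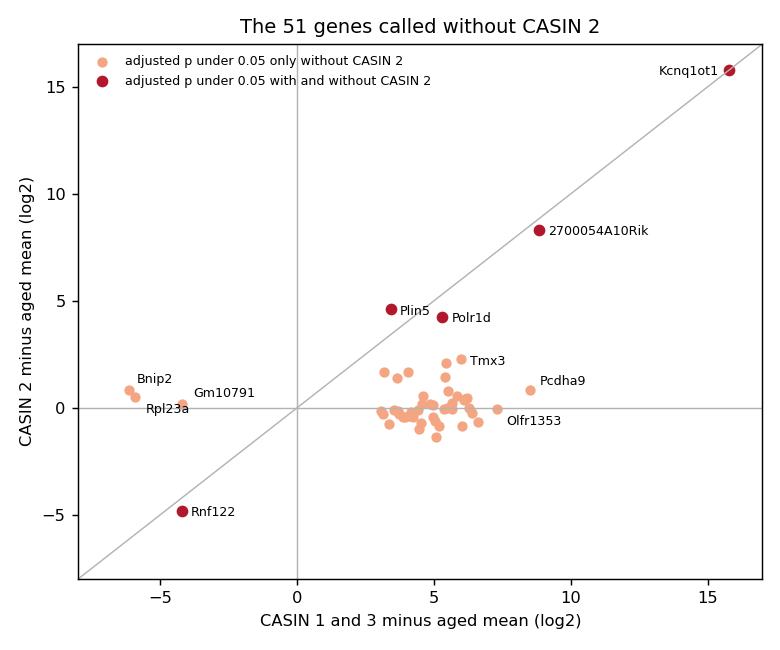
Each point is 1 of the 51 genes with an adjusted p under 0.05 without CASIN 2, with the log2 difference of CASIN 1 and 3 from the aged mean on the horizontal axis and that of CASIN 2 on the vertical axis. The 5 genes called with all libraries lie near the diagonal, whereas most of the others lie closer to 0 on the vertical axis, with CASIN 2 above every aged value in 11 of the 47 higher genes.

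Functional groups were then described through 42 gene lists, each by the number of members higher or lower at an unadjusted limma p under 0.05, to be read against 2.48% higher and 1.92% lower over all genes. Counts without CASIN replicate 2 are to be read against 4.34% and 2.84%. Of the listed genes, 3 had an adjusted p under 0.05, namely Polr1d, Plin5 and Kcnq1ot1. The other members with an unadjusted p under 0.05 failed the adjustment (limma adjusted p from 0.282 to 0.948), so that in the following "higher" and "lower" stand for an unadjusted limma p under 0.05. The lists were not tested as sets.

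**Figure D4:**
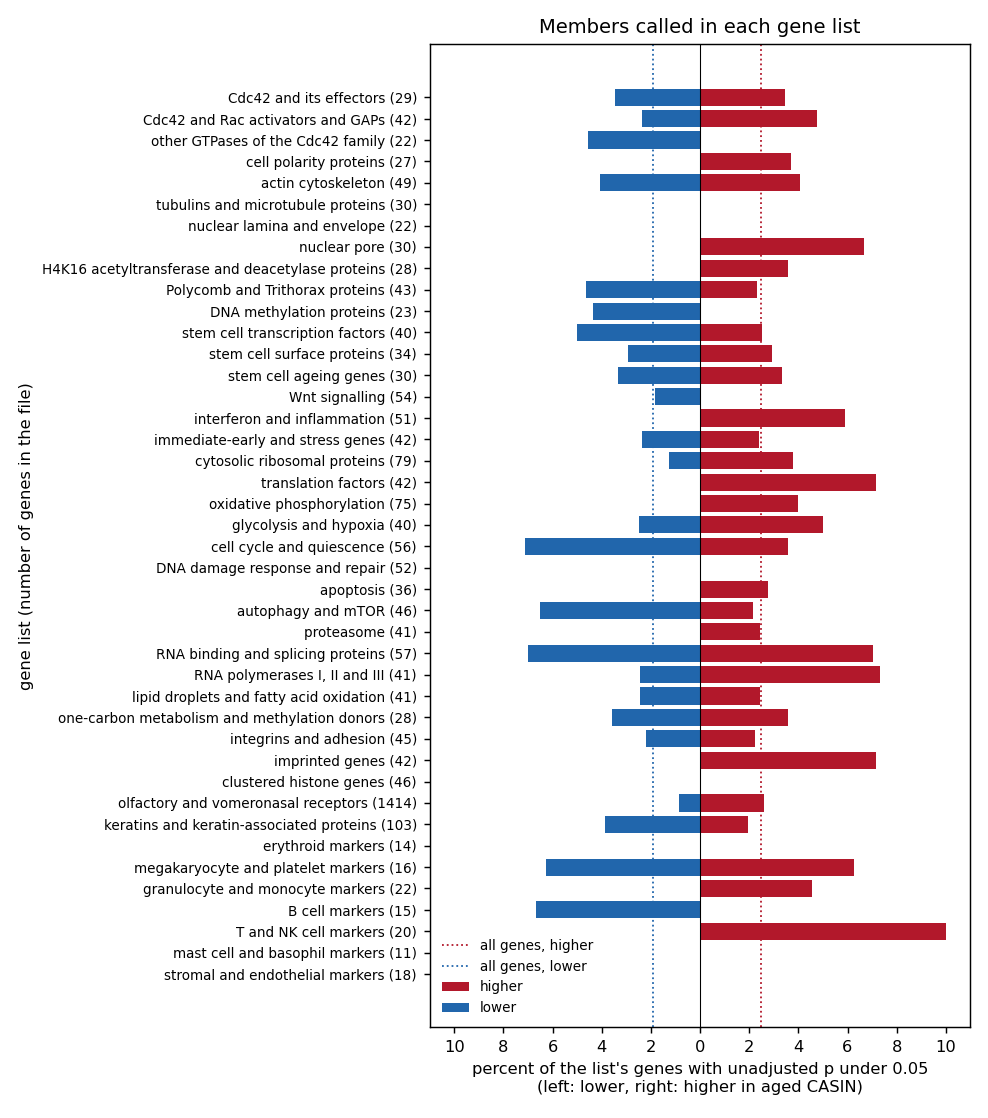
Bars give the percentage of each list's genes with an unadjusted p under 0.05, higher in aged CASIN to the right and lower to the left, and dotted lines give the percentage over all genes (2.48 and 1.92). Apart from the 1414 receptors, the lists hold 0 to 4 such genes in each direction, so that bars of short lists are long with 1 or 2 genes.

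For Cdc42 itself, the target of the treatment, no difference was detected. Its value was 6.39 and 7.25 in CASIN replicates 2 and 3 and the lowest value in CASIN replicate 1, and in aged replicates 0, 2, 3, 4 and 5 it was 4.62, 3.57, 5.59, 4.24 and 6.46 (log2 difference -0.14, standard error 1.58, limma adjusted p = 0.999). CASIN acts on the activity of the protein, which RNA levels do not measure. Of 29 genes for Cdc42 and its effectors, 1 was higher and 1 lower. The kinase gene Pak2 had 4.94, 3.51 and 3.03 in CASIN replicates 1, 2 and 3 and 1.84, 1.46, 0.23, 2.23 and 0.89 in the aged libraries (log2 difference 2.50, standard error 0.90). The neuronal paralog Pak7 was at the lowest value in CASIN replicates 1 and 3, at 1.90 in CASIN replicate 2 and at 2.05 to 7.03 in aged libraries (log2 difference -3.84, standard error 0.93, limma adjusted p = 0.682).

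Among 42 regulators of Cdc42 and Rac, 2 were higher and 1 lower. Dock11, an exchange factor that activates Cdc42, had 7.80, 5.75 and 6.56 in the CASIN libraries and 1.29, 1.01, 3.89, 0.22 and 1.54 in the aged libraries (log2 difference 5.11, standard error 1.80). Arhgdib, a GDP dissociation inhibitor that holds Cdc42 and related GTPases in the cytosol of blood cells, had 6.18 and 7.36 in CASIN replicates 2 and 3 and the lowest value in CASIN replicate 1, with at most 0.67 in aged libraries (log2 difference 4.42, standard error 1.18, limma adjusted p = 0.809). Tiam2, an exchange factor for Rac, had a log2 difference of -3.52 (standard error 1.56). Arhgap1, which switches Cdc42 off, ranged from the lowest value to 6.58 in CASIN libraries and from 1.16 to 6.23 in aged libraries (log2 difference 1.23, standard error 1.39). Of 22 other GTPases of the same family, Rac1 was lower, with 5.10 to 6.39 in aged replicates 2, 3 and 4, 0.86 and 1.54 in aged replicates 0 and 5, and no value above 0.63 in the CASIN libraries.

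Of 27 polarity genes, Pard6a was called higher on the strength of CASIN replicate 2 (3.59) with every other library at its lowest value. In the actin cytoskeleton list, 2 of 49 genes were higher and 2 lower. Actb, cytoplasmic beta-actin, had 5.52, 4.15 and 5.52 in CASIN replicates 1, 2 and 3 and 3.29, 1.86, 2.02, 1.53 and 2.67 in the aged libraries. The 2 groups did not overlap, and the log2 difference was 2.79 (standard error 0.95, limma adjusted p = 0.948). Vim, the intermediate filament vimentin, had 6.81, 1.58 and 4.99 in the CASIN libraries and was at the lowest value in 4 of 5 aged libraries (log2 difference 3.86). The myosin light chain Myl6 and the membrane linker Msn had log2 differences of -4.01 and -2.68. None of 30 tubulin and microtubule genes reached an unadjusted limma p under 0.05 in either direction (without CASIN replicate 2, 1 higher and 1 lower).

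None of 22 genes of the nuclear lamina and envelope had an unadjusted limma p under 0.05, and without CASIN replicate 2 there were 2, both lower. Lmna, which encodes lamins A and C, had 5.51 in CASIN replicate 2 and was at the lowest value in CASIN replicates 1 and 3, and in aged replicates 0, 2, 3, 4 and 5 it had 0.07, 4.48, 1.36, 0.22 and 5.32. Its values in both groups thus ran from the lowest value to above 5 (log2 difference -0.05, standard error 1.91, limma adjusted p = 1). Lmnb1 and Lmnb2 were detected in CASIN replicate 2 alone of the CASIN libraries, at 4.44 and 1.02. Of 30 nuclear pore genes, 2 were higher. Ranbp2, the large nucleoporin of the cytoplasmic filaments, had 8.48, 7.0 and 8.53 in CASIN libraries and 3.06, 6.94, 4.68, 1.53 and 4.15 in aged libraries (log2 difference 3.93, standard error 1.62), so that aged replicate 2 nearly reached CASIN replicate 2. Nup210 had a log2 difference of 3.10 (standard error 1.24). With CASIN replicate 2 left out, the nuclear pore list held 2 higher and 3 lower.

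Few chromatin regulators were called. In the H4K16 acetylation list (28 genes), 1 gene was higher, the deacetylase Hdac4, with 5.71 and 6.15 in CASIN replicates 2 and 3, the lowest value in CASIN replicate 1 and at most 1.38 in the aged libraries. The H4K16 acetyltransferase Kat8 was detected in CASIN replicate 2 alone of the CASIN libraries (1.16) and in 2 aged libraries (0.67 and 3.57). Of 43 Polycomb and Trithorax genes, Aebp2 was higher and the PRC1 genes Cbx2 and Phc2 were lower. Aebp2 had 5.15, 5.89 and 8.65 in CASIN replicates 1, 2 and 3 and 0.23 to 7.61 in the aged libraries. Its values thus overlapped between the groups (log2 difference 3.70, standard error 1.66). Cbx2 had 4.09, 7.48, 5.92, 5.10 and 1.65 in the aged libraries and at most 0.63 in the CASIN libraries (log2 difference -4.34, standard error 1.26). Of 23 DNA methylation genes, the methyltransferase Dnmt3a was lower, with 7.35 in CASIN replicate 2 inside the aged range of 4.62 to 7.73 and the lowest value in CASIN replicates 1 and 3. When CASIN replicate 2 was omitted, its log2 difference was -6.21 (standard error 1.19, limma adjusted p = 0.126). A noncoding gene, Dnmt3aos, lies on the opposite strand of Dnmt3a. From CASIN replicates 1 and 3 alone, the calls in these lists were all lower. They were 1 of 28 in the H4K16 acetylation list and 4 of 43 in the Polycomb and Trithorax list (9.3%). In the DNA methylation list they were 3 of 23 (13%), beside 2.84% lower over all genes. In CASIN replicate 2, however, Kmt2c, Asxl2 and Cbx7 stood at 8.38, 6.92 and 5.15, and Dnmt3a, Dnmt3b and Mbd5 at 7.35, 5.80 and 7.09. These values lay within or above the aged range, whereas Cbx2 was at 0.32, below it.

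Among HSC transcription factors, 1 of 40 genes was higher and 2 were lower. Nr4a1, a nuclear receptor tied to HSC quiescence, had 4.37, 6.02 and 6.81 in CASIN libraries and 0.51 to 5.51 in aged libraries (median 2.09, log2 difference 3.13, standard error 1.22). Erg had 1.38 to 7.12 in aged libraries (median 4.04) and at most 1.02 in CASIN libraries (log2 difference -3.42, standard error 1.09). Foxo1, a transcription factor of stress resistance, had 3.34 and 2.15 in CASIN replicates 1 and 2 and the lowest value in CASIN replicate 3, compared with 2.79 to 7.11 in the aged libraries. The levels of Hoxb4 and Mllt6 overlapped between the groups. Hoxb4 had 5.90, 0.50 and 6.05 in CASIN replicates 1, 2 and 3 and 0.75 to 6.83 in the aged libraries. Its value in CASIN replicate 2 was thus below every aged value (log2 difference 1.57, standard error 2.05). Mllt6 had 3.34, 6.53 and 6.97 in the CASIN libraries and 1.30 to 6.07 in the aged libraries (log2 difference 1.46, standard error 1.30). Of 34 surface proteins, Ly6e was higher (log2 difference 2.83) and Itgb3 was lower. Itgb3, an integrin chain known to be high on aged HSCs and platelets, had 6.47, 7.79 and 5.67 in CASIN libraries and 8.21, 8.01, 8.83, 8.03 and 7.28 in aged libraries. The value in CASIN replicate 2 lay within the aged range (log2 difference -1.43, standard error 0.58). In the ageing list of 30 genes, Cd38 was higher, with 5.09, 6.21 and 6.38 compared with 2.25 to 5.18 in aged libraries (median 3.88), and Itgb3 was the single gene lower. Of 45 adhesion genes, Itga9 was higher (log2 difference 2.06) beside Itgb3, and of 54 Wnt genes the receptor Fzd7 was lower (log2 difference -3.31, standard error 1.20). Without CASIN replicate 2 the counts were 1 higher and 3 lower for adhesion and 1 higher and 4 lower for Wnt genes.

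Interferon and inflammation genes included 3 of 51 higher and 0 lower. Rsad2, the antiviral protein viperin, had 7.37, 3.85 and 6.42 in CASIN replicates 1, 2 and 3 and 1.84, 4.80, 2.15, 1.97 and 3.82 in the aged libraries (log2 difference 2.96, standard error 0.94). The groups overlapped through CASIN replicate 2. Gbp3, an interferon-induced GTPase, had 7.47 and 7.51 in CASIN replicates 1 and 3 and 1.46 in CASIN replicate 2, with 3.29 in aged replicate 0 and the lowest value in the other aged libraries. The third was Ifi44 (6.02, 6.93 and 6.62 in CASIN libraries and 1.30 to 6.86 in aged libraries). In the fit of CASIN replicates 1 and 3, the count was 5 higher and 1 lower. Of 42 immediate-early and stress genes, the mitochondrial chaperonin Hspe1 was higher (log2 difference 3.52) and the antiproliferative gene Btg1 lower (log2 difference -3.54, standard error 1.03). Hspe1 had 7.09, 2.38 and 6.45 in CASIN replicates 1, 2 and 3 and 0.16 to 4.50 in the aged libraries. Its value in CASIN replicate 2 thus lay within the aged range.

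Genes of RNA processing and translation were called at 7.02% and 7.14% in single directions, on 3 or 4 genes each. Of 57 RNA-binding and splicing genes, 4 were higher (Hnrnpk, Sf3b1, Snrpa and Pcbp2) and 4 lower (Hnrnpul2, Hnrnpc, Srsf7 and Sf3b2), 7.02% in each direction. Hnrnpul2 had 6.22, 7.76, 7.62, 4.95 and 5.40 in the aged libraries, 4.62 in CASIN replicate 2 and the lowest value in CASIN replicates 1 and 3 (log2 difference -4.45, standard error 1.22, limma adjusted p = 0.873). Sf3b1, a core spliceosome protein, had 3.92, 7.46 and 6.49 in the CASIN libraries and 1.32 to 5.48 in the aged libraries (median 1.88). The list thus held genes of both directions, with a median log2 difference of -0.14, and without CASIN replicate 2 it held 3 higher and 7 lower. Of 42 translation factors 3 were higher and 0 lower. Eif3d had 7.23, 4.12 and 4.15 in the CASIN libraries and 0.98, 0.65, 1.54, 2.46 and 0.89 in the aged libraries (log2 difference 3.87, standard error 1.01, limma adjusted p = 0.775), Eif5a had 5.90, 5.10 and 6.15, and the third was Eif4g1. For this list the median log2 difference was 0.36, and it was 0.33 without CASIN replicate 2.

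Of 79 cytosolic ribosomal protein genes, 3 were higher (Rpl13, Rps9 and Rpl32) and 1 lower (Rpl23a). Rpl13 had 6.62, 6.74 and 8.62 in CASIN libraries and 2.92, 0.32, 4.47, 5.10 and 3.82 in the aged libraries (log2 difference 4.00, standard error 1.32). Ribosomal protein genes have many processed pseudogenes, and reads may be split among the copies. When CASIN replicate 2 was omitted, the count was 7 higher (8.86%) and 3 lower (3.8%). Of 41 genes for RNA polymerases and polymerase I factors, Polr1d, Polr3b and Cd3eap were higher and the nucleolar methyltransferase Fbl was lower. Polr3b, the second-largest subunit of RNA polymerase III, had 7.19, 5.20 and 5.74 in the CASIN libraries and 1.46, 5.58, 0.23, 1.53 and 3.62 in the aged libraries (log2 difference 3.56, standard error 1.04). Cd3eap, a polymerase I subunit, had 4.79, 4.23 and 6.09, above all aged values.

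Metabolic lists held few calls. Of 75 nuclear-encoded genes of oxidative phosphorylation, 3 were higher and 0 lower, but the list was poorly detected, with 8%, 77.3% and 17.3% of its genes above the lowest value in CASIN replicates 1, 2 and 3 and 21.3% to 48% in the aged libraries. Its higher genes Sdhc and Ndufa9 had log2 differences of 1.90 and 1.28, and Ndufs8 was detected in CASIN replicate 2 alone. In glycolysis (40 genes), Hk1 had 5.70, 5.51 and 5.80 in the CASIN libraries and 0.86, 4.22, 0.23, 2.23 and 0.89 in the aged libraries (log2 difference 3.98, standard error 1.37), so that hexokinase values were alike in all CASIN libraries and above every aged value. The glucose transporter Slc2a1 was higher (log2 difference 4.06) through CASIN replicates 1 and 2, and the pyruvate kinase Pkm was lower (log2 difference -4.23). Among 41 lipid genes, Plin4 went opposite to Plin5, with 4.62, 5.40, 6.02 and 4.37 in aged replicates 0, 2, 3 and 5 and at most 0.63 in CASIN libraries, although it was at the lowest value in aged replicate 4 (log2 difference -3.58, standard error 1.06). The lipid list held 3 higher and 1 lower without CASIN replicate 2. In one-carbon metabolism (28 genes), Ahcy was lower while its paralog Ahcyl1 was higher, with 6.56 and 6.65 in CASIN replicates 2 and 3, the lowest value in CASIN replicate 1 and at most 1.30 in aged libraries.

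Of 56 cell cycle genes, 2 were higher and 4 lower. The lower genes were the condensin genes Ncapg2, Smc4 and Smc2, which compact chromosomes in mitosis, and the cyclin Ccna2. Smc4 had 1.96, 3.29, 7.70, 7.11 and 5.27 in the aged libraries, 1.33 in CASIN replicate 2 and the lowest value in CASIN replicates 1 and 3 (log2 difference -4.22, standard error 1.68). Smc2 had 1.21 to 6.80 in aged libraries (median 3.93) and 1.56 in CASIN replicate 2 (log2 difference -2.96). Without CASIN replicate 2, the cell cycle list held 2 higher and 1 lower. The higher genes were the phosphatase Cdc25b, with 5.58, 5.03 and 5.59 in the CASIN libraries and 5.87 in aged replicate 2, and the inhibitor Cdkn2c (log2 difference 1.90). None of 52 DNA damage and repair genes had an unadjusted limma p under 0.05 (without CASIN replicate 2, 2 higher and 1 lower), and of 36 apoptosis genes Bik was higher (log2 difference 2.76).

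In the autophagy and mTOR list, 1 of 46 genes was higher and 3 were lower. Gabarapl2, which binds autophagosome membranes, had 6.98, 5.71, 7.12, 7.20 and 6.07 in the aged libraries and 1.68 and 4.15 in CASIN replicates 2 and 3, with the lowest value in CASIN replicate 1 (log2 difference -4.46, standard error 0.98, limma adjusted p = 0.569). Rictor, the defining subunit of mTOR complex 2, was detected in all 8 libraries, at 4.94, 4.62 and 4.39 in CASIN replicates 1, 2 and 3 and at 6.89, 6.71, 8.02, 6.79 and 5.68 in the aged libraries. All CASIN values lay below all aged values, and CASIN replicate 2 lay between the other CASIN libraries (log2 difference -2.17, standard error 0.63, limma adjusted p = 0.948). The third lower gene was Atg2a. Of 41 proteasome genes, Psmd3 was higher, with 5.24, 4.50 and 7.44 in the CASIN libraries and 0.22 to 3.59 in the aged libraries (median 1.78, log2 difference 3.71, standard error 0.93, limma adjusted p = 0.75). With CASIN replicate 2 left out, the proteasome list held 4 higher (9.76%) and 0 lower.

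Of 42 imprinted genes, 3 were higher, Kcnq1ot1, Gnas (5.44, 6.36 and 7.62 in CASIN libraries and 0.16 to 5.97 in aged libraries) and Gab1 (log2 difference 3.81). Gab1 had 8.01, 2.79 and 7.28 in CASIN replicates 1, 2 and 3 and 0.22 to 6.71 in the aged libraries. In the fit of CASIN replicates 1 and 3, the imprinted list held 4 higher and 5 lower. The clustered histone genes, whose transcripts lack a poly(A) tail, were rarely detected, with 13%, 19.6% and 6.52% of 46 genes in CASIN replicates 1, 2 and 3. None of them was at an unadjusted limma p under 0.05, and without CASIN replicate 2 the count was 5 higher (10.9%, beside 4.34% over all genes) and 0 lower.

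Markers of other blood lineages and of stroma were called at 0 to 2 genes a list. Of 16 megakaryocyte and platelet markers, Gp5 was lower, with 4.62, 2.38, 2.38, 2.79 and 0.89 in the aged libraries and at most 0.63 in the CASIN libraries (log2 difference -2.04, standard error 0.67). Cd22, a B cell receptor, was lower (log2 difference -1.97, standard error 0.89), at 5.39 and 5.59 in CASIN replicates 1 and 3 and at 8.80 in CASIN replicate 2, within the aged range of 7.73 to 8.93. Cd4 was higher, with 7.23, 4.50 and 3.03 compared with 1.01 to 3.30 in aged libraries. The calls of Pf4, Ctsg and Nkg7 as higher came from CASIN replicate 2, where they had 2.25, 2.46 and 1.88, with every other library at its lowest value. None of the 14 erythroid, 11 mast cell or 18 stromal and endothelial markers had an unadjusted limma p under 0.05, and without CASIN replicate 2 the erythroid list held 1 lower and the stromal list 1 higher and 2 lower. The part of such cells in the results was not tested.

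As genes not known to be made by blood stem cells, the olfactory and vomeronasal receptors were taken for comparison. Of 1414 such genes, 10.3% and 13.2% were detected in CASIN replicates 1 and 3, 24.7% to 60.3% in aged libraries and 75.3% in CASIN replicate 2. At an unadjusted p under 0.05, 37 were higher (2.62%) and 12 lower (0.85%), the first close to the 2.48% of all genes. Olfr1336 had 5.39, 1.68 and 5.92 in the CASIN libraries and at most 0.67 in the aged libraries (log2 difference 4.06, standard error 0.99, limma adjusted p = 0.695). Olfactory receptors form a large family with similar sequences, and reads may be split among them. Of 103 keratins and keratin-associated proteins, 8.74% and 24.3% were detected in CASIN replicates 1 and 3 and 81.55% in CASIN replicate 2, with 2 genes higher (1.94%) and 4 lower (3.88%). Without CASIN replicate 2 the counts were 67 higher (4.74%) and 5 lower (0.354%) for the receptors and 11 higher (10.7%) and 1 lower (0.971%) for the keratins, beside 4.34% and 2.84% over all genes.

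**Figure D5:**
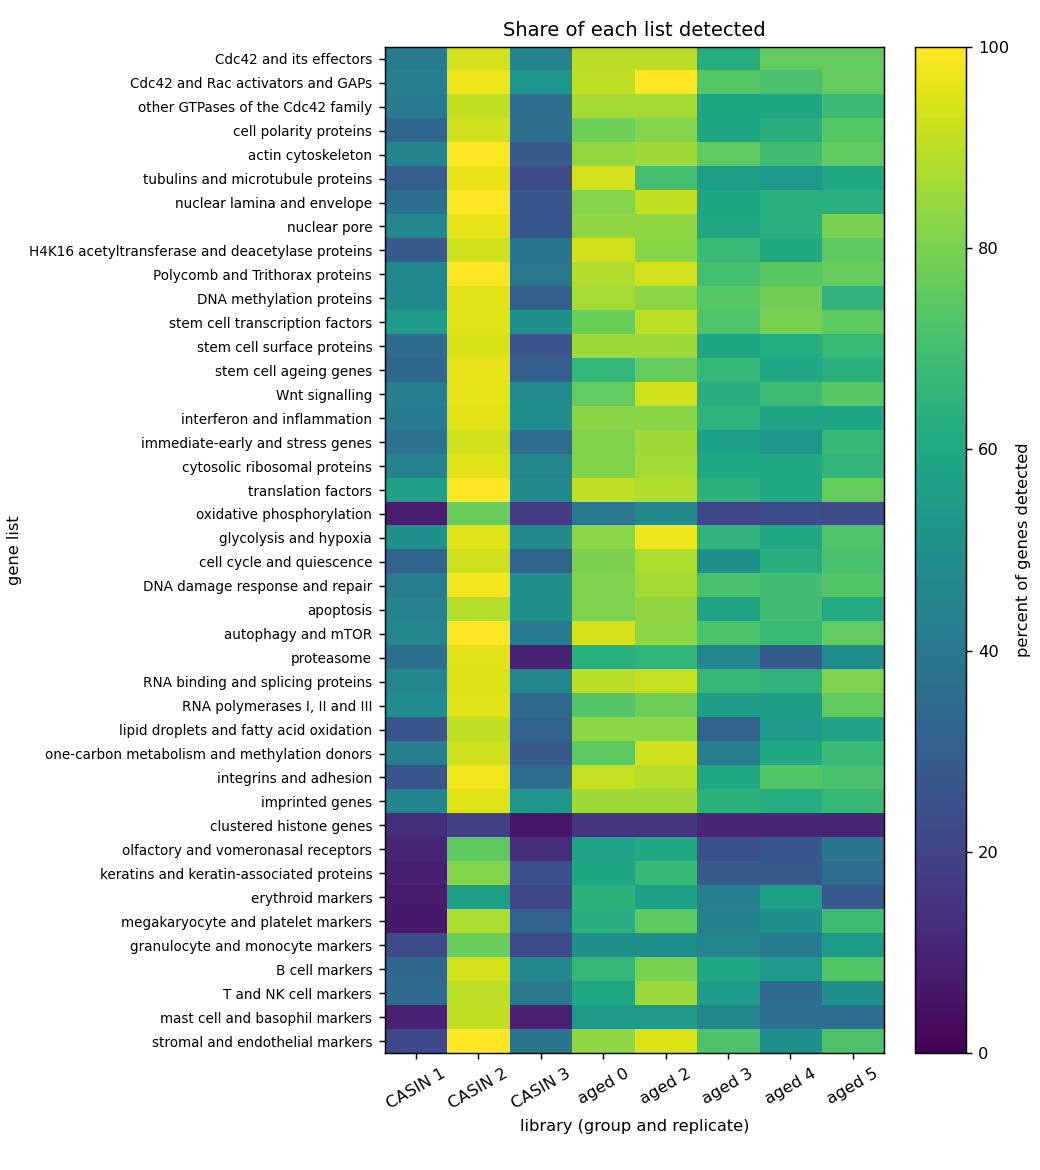
Colour gives the percentage of each list's genes above the lowest value in each library, from 0 (dark) to 100 (yellow). CASIN 2 is the brightest column for nearly every list, including receptors and keratins, CASIN 1 and CASIN 3 are the darkest for most lists, and clustered histone genes are dark in all libraries.

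By position, 21316 genes (94.5% of the table) were placed by symbol in GENCODE M21. Chromosome 11, whose arrangement in the nucleus the study examined, held 40 higher and 32 lower genes at an unadjusted p under 0.05 among 1630 (2.45% and 1.96%), close to the values of all genes. Chromosome 6 had the highest share of higher genes (3.98% of 1156) and chromosome 3 the highest share of lower genes (3.44% of 1018). By type, 2.58% of 19253 protein-coding genes were higher and 2.01% lower, compared with 2.27% and 0.94% of 748 lincRNAs.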

How the data were processed

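RNA-seq was done on sorted long-term HSCs, and 12 libraries are in the table (4 young, 5 aged and 3 aged CASIN). Per the study's methods, the authors made libraries with a single-cell amplification kit, trimmed reads with Trim Galore, aligned them with TopHat to mm10 and estimated expression with Cufflinks. The table deposited by the authors holds quantile-normalized log2 values of 22548 genes, with ties at the lowest value of each library. No counts are given, so the depth behind each value is unknown, and no interval for counting error can be given. How reads were assigned to strands is not given in the sources used here. The sheets of the authors' own comparisons hold fold changes and p-values and were not used, and 0 columns belonged to no sample.

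All 12 libraries entered 1 limma fit (version 3.58.1 in R 4.3.3) with 3 groups, no filter, and the contrast aged CASIN minus aged, with Benjamini-Hochberg adjustment over 22548 genes. The fit was tried on values shuffled among the libraries within each gene, with some genes moved by known amounts. The outcome of this trial is not reported here. Tables were made with Python 3.11.15, pandas 2.3.3 and numpy 2.4.6, and figures with matplotlib 3.10.9. A value was detected if above the lowest of its library. Percentages of detected genes were compared by a two-sided exact permutation test over libraries. Positions are from GENCODE M21 (mm10, the same build as GRCm38).

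Named genes were those with an adjusted p under 0.05, the 10 largest differences in each direction at p under 0.01 without overlap and with detection in all 3 CASIN or all 5 aged libraries, the 5 largest in each direction among genes detected in all 8, the 2 smallest p in each direction in each of 42 lists, the genes named for this study's subject (among them Cdc42, Arhgap1, Lmna, Lmnb1, Lmnb2, Kat8, Hoxb4, Mllt6 and Actb), and the 5 largest in each direction without CASIN replicate 2. Some genes that meet these rules are not reported here. Other names complete short counts or marker checks and were chosen after their values were seen. The members and lists were chosen with earlier results of these data known. Alternatives were a common lowest value, centring, filters, a pseudocount, weights, limma-trend, robust moderation, a fit of the 8 aged libraries alone, a detection covariate, a replicate block and leaving out each library. The fit of the aged groups alone without CASIN replicate 2 was added after seeing the data. CASIN and aged replicates share the numbers 2 and 3, and the deviations of these pairs correlated at 0.0576 and 0.0154, so the numbers were not taken to pair samples.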

Additional observations from a re-analysis of the deposited data

Results flagged for a closer look

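In 17 of 117 groups of 5 aged libraries looked at (14.5%), 1 library stood far from the other 4 by Dixon's test (critical value 0.71). Chance flags about 1 in 20 groups of normally distributed values, a rate that does not carry over to these groups, since in several of them most libraries were at or near their lowest value and most genes were chosen by their difference. The library was the highest in 12 genes and the lowest in 5.

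Among genes higher after CASIN, aged replicate 3 stood out for 1500012F01Rik (2.21, with 0.02 to 0.22 in the others) and 3110035E14Rik (2.86, with 0.67 to 1.3). Aged replicate 2 stood out for Acsm1 (1.05), Cdc25b (5.87, with 0.07 to 1.53) and Olfr1336 (0.67). Aged replicate 0 stood out for Arhgdib (0.67), Gbp3 (3.29, with 0.02 to 0.23) and Plin5 (0.48, with 0.16 to 0.23). Aged replicate 5 stood out for B4galt3 (3.01, with 0.07 to 0.87) and Vim (2.48, with 0.02 to 0.23). Of the genes named for the study's subject, Kat8 (3.57) and Lmnb1 (1.16) were highest in aged replicate 2.

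Among genes lower after CASIN, 1 aged library came closer to the CASIN values than the others. These were aged replicate 2 for Bnip2 (4.79, with 6.95 to 7.49 in the others), aged replicate 3 for Cd22 (7.73, with 8.59 to 8.93), aged replicate 4 for Dnmt3a (4.62, with 6.99 to 7.73) and Plin4 (0.22, its lowest value, with 4.37 to 6.02), and aged replicate 5 for Pla2g4c (1.84, with 6.35 to 7.73).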

How the results depend on the processing

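The number of genes with an adjusted p under 0.05, 5 with all libraries, was 2 with genes detected in at least 3 samples, in at least 6 samples or with a mean of at least 3, and also 2 with a pseudocount of 0.1 and with limma-trend. It was 9 with a detection covariate, 28 with voom weights and 1 with a replicate block. In the fit of the 8 aged and aged CASIN libraries alone it was 6, and 2 of these were among the 5. It was 52 for the aged groups alone without CASIN replicate 2, a fit added after seeing the data. Leaving out 1 library gave 2 (aged replicate 3) to 51 (CASIN replicate 2), with 23 and 12 without CASIN replicates 1 and 3, 3 without aged replicate 2, 8 without aged replicate 4 and 10 without young replicate 5. The cause was not tested, other than that filters test fewer genes. At p under 0.01, 209 genes became 116 and 68 under the filters on 6 samples and on the mean, 350 with the detection covariate, 369 with voom weights and 487 in the added fit, and 200 to 391 without 1 library. At p under 0.05, 993 became 551 and 301 under these filters, and 920 to 1619 without 1 library. Kcnq1ot1 kept its call in 26 of 26 alternatives (adjusted p 8.83e-20 to 0.00369, limma), 2700054A10Rik in 25 (lost in the replicate block, limma adjusted p = 0.084), Polr1d in 16 of 25, Plin5 in 15 of 24 and Rnf122 in 10 of 24, with limma adjusted p up to 0.748 for these 3. Of 103 other named genes at p under 0.05, 30 stayed under it in every setting, 51 in the replicate block and 70, 78 and 64 without CASIN replicates 1, 2 and 3. Centring moved the median of all genes by 0.35 and a common lowest value by -0.13, and the medians of 18 and 11 of 42 lists changed sign. Relative to the median of all genes, centring changed the sign of 0. The percentage of genes detected differed by -12.152 points between CASIN and aged libraries (exact permutation p = 0.464), by -31.291 points without CASIN replicate 2 (no p is given, since that library was set apart by this measure) and by -2.09 points without CASIN replicate 1. Counting values above 1 it was -14.2 points (exact permutation p = 0.0893). Counting values above 3 it was 0.462 points. The shared distribution of the libraries largely fixes the share above 3, so this last setting cannot describe detection.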
